A study of Mus musculus with 24 samples.

Results

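The collagen chain genes are the genes whose symbol is Col, a number, the letter a and a second number, and each encodes 1 alpha chain of a collagen. This rule, which reads symbols and no measured value, found 40 of the 14912 genes of the deposited expression table. RNA was sequenced from the left ventricle of male wild-type C57BL/6J mice. The hypertensive-LVH group (left ventricular hypertrophy) received angiotensin II (ANG II), the vasoconstrictor peptide that raises blood pressure, at 1500 ng/kg/min for 7 days from an implanted osmotic mini-pump, and the control group received saline in the same way. The age of the mice is not given in the sources used here. Each group had 12 samples here. The comparison asks which genes differ between ventricles under ANG II-induced hypertension and ventricles of saline-infused mice.

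Collagens are trimers of alpha chains wound into a triple helix, and they form the load-bearing part of the cardiac extracellular matrix. Fibrillar collagens assemble into the fibres that are deposited in cardiac fibrosis. Network collagens form the sheets of basement membranes around cardiomyocytes and vessels, collagen VI forms beaded microfilaments next to the cells, and the FACIT collagens (fibril-associated collagens with interrupted triple helices) sit on the surface of fibrils. Cardiac fibroblasts make most fibrillar collagen, while endothelial and mural cells contribute much of the basement membrane.

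The table held 11 fibrillar, 8 network, 5 beaded-filament, 8 FACIT, 1 anchoring-fibril, 3 transmembrane and 2 multiplexin genes, and 2 genes of other kinds. Of these, 36 had a mean of at least 0.1 FPKM (a fragment count corrected for transcript length and library size) and were tested. Col24a1, Col6a5, Col9a1 and Col25a1 were below that minimum. In whole heart tissue, a lower number of cells of a type and less RNA per cell cannot be told apart, and the same holds for higher values.

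The values are not plain FPKM. Tied values divided the samples into 4 sets, each with 3 hypertensive-LVH and 3 control samples, numbered 1 to 3, 4 to 6, 7 to 9 and 10 to 12 in both groups, and within each set every gene had been shifted and scaled. The spacing of the values fits a model in which a difference between the groups, the same in all 4 sets of a gene, was set aside before the scaling and added back after it. For Col1a1 this group term was 287 FPKM. Summed over all genes, the hypertensive-LVH samples had 460715 to 515185 FPKM and the controls 482319 to 567727. The table gives no read counts, so the depth behind a value is unknown. Of the collagen values, 28 in 13 genes were negative, and all 28 lay in control samples 4 to 6. For this reason, results over all samples are set beside values without samples 4 to 6 of both groups and, for the main genes, beside the differences within the sets in FPKM after the scaling was undone. Undoing the scaling leaves the shift of a set unknown, so it gives differences between the groups of a set and no levels.

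Because the group term is shared, the deposited values of every set carry it, and neither the agreement of the sets nor the deposited values without samples 4 to 6 are independent of samples 4 to 6. The groups of the first set, for example, differed by 66.6 FPKM of Col1a1 as deposited and by 14.5 with the scaling undone. Of 34 tested collagen genes that could be solved, the deposited and the unscaled difference had opposite signs for 9, 0, 5 and 2 genes in the 4 sets in order. The differences with the scaling undone do not carry the group term. Medians, ranges, sums and shares pooled over sets below are of deposited values, so how levels compare between sets also reflects the shift of each set.

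Over all samples, 14 of the 36 tested collagen genes were upregulated in the hypertensive-LVH group (adjusted p under 0.05 and log2 fold change above 0.5, limma), beside 4.52% of all 14026 genes tested, and 0 were downregulated, beside 1.4%. By the adjusted p alone, 24 collagen genes were higher, beside 20.9% of all genes, and 0 were lower, beside 12.6%. The upregulated genes were 5 of 10 fibrillar genes (Col1a1, Col1a2, Col3a1, Col5a1 and Col5a2), 2 of 8 network genes (Col4a2 and Col8a1), 3 of 4 beaded-filament genes (Col6a1, Col6a2 and Col6a3), 2 of 7 FACIT genes (Col14a1 and Col16a1) and both multiplexin genes (Col15a1 and Col18a1). The median log2 fold change was 0.43 over the collagen genes and 0.05 over all genes tested. By class it was 0.63 for the fibrillar, 0.43 for the network, 0.84 for the beaded-filament and 0.36 for the FACIT genes. Differences between classes were not tested.

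Much of this rested on samples 4 to 6 of both groups. Without them, 1 collagen gene (Col1a1) was upregulated, beside 2.3% of all genes, and 0 were downregulated, beside 1.64% (at an unadjusted p under 0.05, 10 were higher and 1 lower). By the adjusted p alone, 4 (Col1a1, Col5a1, Col4a1 and Col4a2) were higher, beside 8.36%, and 0 lower, beside 11.6%. The median log2 fold change of the collagen genes was then 0.15, and that of all genes 0.01. The class medians were 0.26 for the fibrillar, 0.08 for the network, 0.25 for the beaded-filament and 0.06 for the FACIT genes. The log2 fold change was larger in samples 4 to 6 than in the mean of the other 3 sets for 26 of the 36 genes (adjusted p under 0.05, limma contrast), beside 16.2% of all genes, and smaller for 0, beside 1.03%. In samples 4 to 6 alone, 25 of the 36 genes were upregulated, beside 16.3% of all genes, and 27 were higher by the adjusted p alone, beside 22.1%. In samples 7 to 9 alone and in samples 10 to 12 alone, 0 were upregulated, beside 2.05% and 0.0713% of all genes, and 0 were higher by the adjusted p alone, beside 2.17% and 0.0713%. Samples 1 to 3 alone gave 0 calls among the collagen genes and 0 (0.0%) among all genes.

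After the scaling was undone, 25 of the 34 tested collagen genes that could be solved were higher in the hypertensive-LVH group by an exact test of labels exchanged within the sets (adjusted p under 0.05), beside 17.2% of all genes so tested, and 0 were lower, beside 10.5%. The same test without samples 4 to 6 found 7 higher (Col1a1, Col3a1, Col5a2, Col4a1, Col4a2, Col7a1 and Col12a1), beside 5.62% of all genes, and 0 lower, beside 8.51% (at an unadjusted p under 0.05, 15 were higher and 1, Col6a6, lower). For 17 of the 34 the difference was above 0 in each of the 4 sets, beside 20.7% of all genes.

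**Figure D1:**
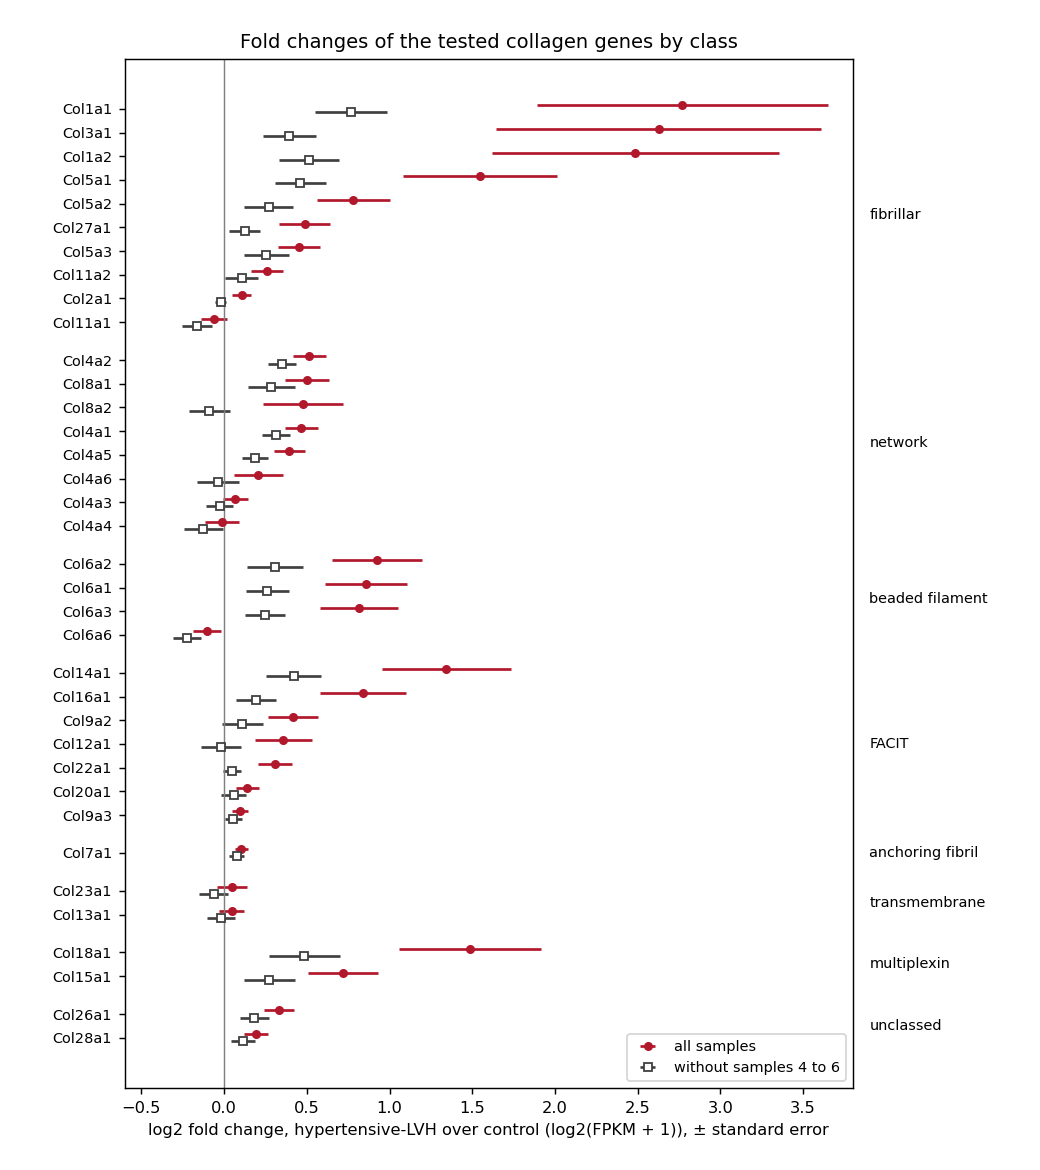
Log2 fold change of the 36 tested collagen genes (horizontal axis, hypertensive-LVH over control on the log2(FPKM + 1) scale), with 1 gene per line, grouped by class. Filled circles are the fits over all samples, open squares the fits without samples 4 to 6, and bars are standard errors; the largest value fell from 2.77 to 0.77, both for Col1a1.

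Over all samples, the main fibre-forming chains Col1a1, Col1a2 and Col3a1 had the largest log2 fold changes. For each of them all 3 values of control samples 4 to 6 were set to 0, so these sizes depend on that step and on the pseudocount. In samples 4 to 6 alone their log2 fold changes were 8.77, 8.40 and 9.32. Among the values without samples 4 to 6, Col1a1 (0.77) and Col1a2 (0.51) were still the largest, while Col3a1 (0.39) lay below Col18a1, Col5a1 and Col14a1. Col1a1 and Col1a2 encode the alpha 1 and alpha 2 chains of type I collagen, the stiff fibre that dominates scar tissue. Col1a1 (chr11:94936224-94953042, plus strand, GRCm38) lay between 98.2 and 527 FPKM (median 265) in the hypertensive-LVH samples and between -59.5 and 165 FPKM (median 120) in the controls. All 3 values of control samples 4 to 6 were negative (-59.5 to -41.3 FPKM), while hypertensive-LVH samples 4 to 6 lay between 346 and 527. Without these samples the hypertensive-LVH values ran from 98.2 to 485 (median 212) and the control values from 96.3 to 165 (median 143). The ranges overlapped, and 10 of 12 hypertensive-LVH samples lay above the highest control. The log2 fold change of Col1a1 was 2.77 ± 0.88 (SE, adjusted p = 0.018, limma), and 0.77 ± 0.22 without samples 4 to 6 (adjusted p = 0.0172). With the scaling undone, the hypertensive-LVH mean was higher by 14.5, 499, 203 and 89.0 FPKM in samples 1 to 3, 4 to 6, 7 to 9 and 10 to 12, respectively, a mean of 201 FPKM (adjusted p = 0.00411, exact test within sets). Over the 3 sets without samples 4 to 6 the mean was 102 FPKM (adjusted p = 0.0434, exact test within sets).

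Col1a2 (chr6:4504814-4541544, plus strand) had a similar order of samples. It lay between 87.3 and 395 FPKM (median 206) in the hypertensive-LVH samples and between -20.2 and 144 (median 118) in the controls, and again 10 of 12 hypertensive-LVH samples lay above all controls. Its log2 fold change was 2.49 ± 0.87 (adjusted p = 0.0296, limma), and without samples 4 to 6 it was 0.51 ± 0.18, which did not pass the threshold (adjusted p = 0.0510). The differences with the scaling undone were 12.5, 330, 131 and 59.7 FPKM in the 4 sets (adjusted p = 0.00482, exact test within sets), and without samples 4 to 6 the test did not pass (adjusted p = 0.0513).

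Col3a1 encodes the single chain of type III collagen, which co-assembles with type I in more compliant fibres. It lies at chr1:45311538-45349706 on the plus strand. It was the most abundant collagen gene in both groups without samples 4 to 6, where it lay between 164 and 551 FPKM (median 314) in the hypertensive-LVH samples and between 235 and 264 (median 247) in the controls. These control values were thus tight as deposited, while the hypertensive-LVH values spread to both sides of them. Each set had been shifted, so the closeness of the control values of different sets is not independent of the processing. In samples 4 to 6 it lay between 447 and 844 FPKM in the hypertensive-LVH samples and between -51.7 and -35.8 in the controls. The log2 fold change was 2.63 ± 0.98 over all samples (adjusted p = 0.0418, limma) and 0.39 ± 0.16 without samples 4 to 6 (adjusted p = 0.0871). With a pseudocount of 0.1 the call over all samples was also lost (adjusted p = 0.0562, limma). The difference with the scaling undone was 7.99, 679, 203 and 126 FPKM in the 4 sets (adjusted p = 0.00458, exact test within sets), and the test still passed without samples 4 to 6 (adjusted p = 0.0485).

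**Figure D2:**
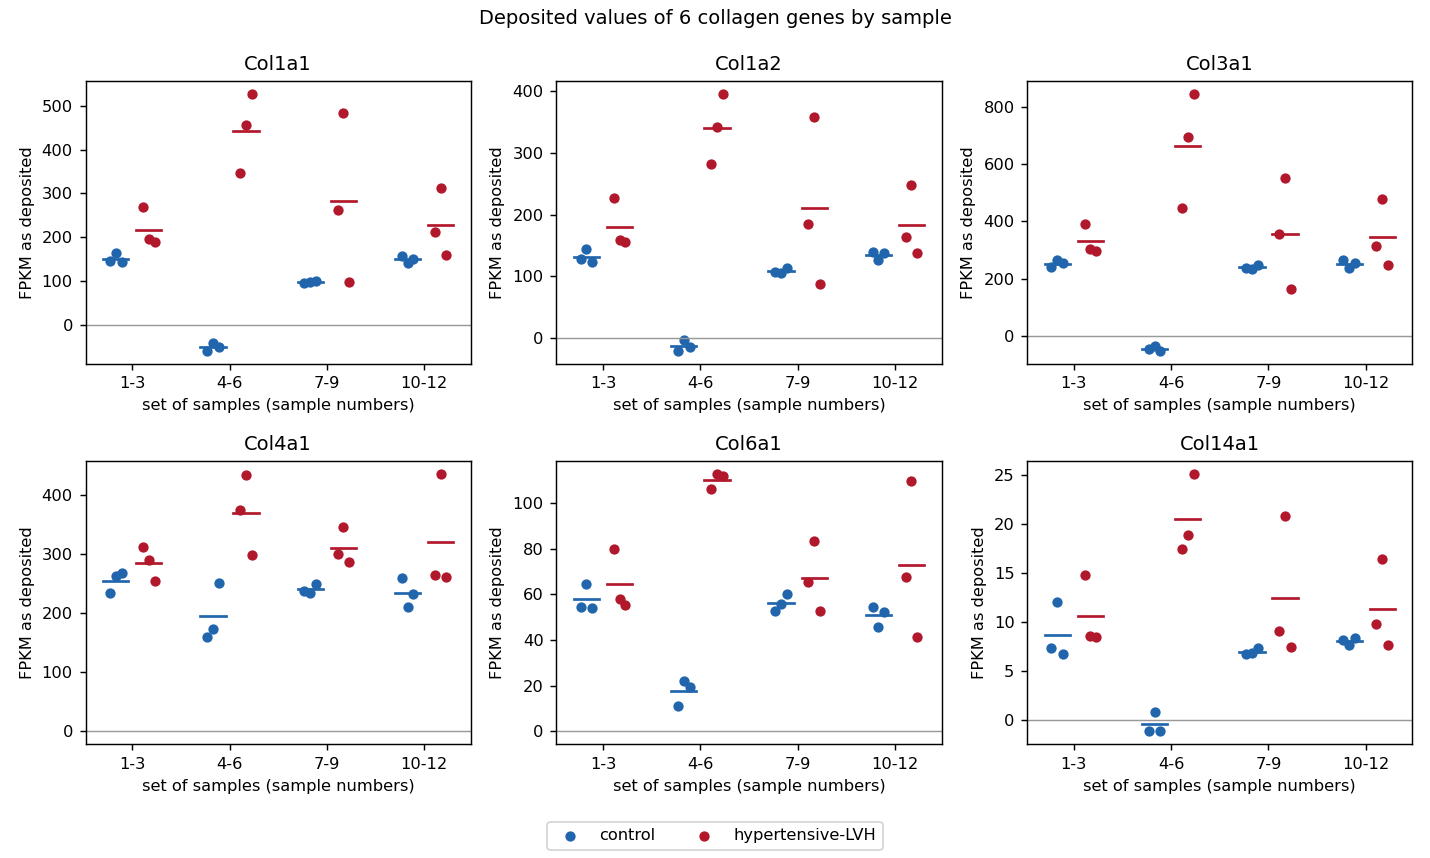
Deposited FPKM (vertical axis) of Col1a1, Col1a2, Col3a1, Col4a1, Col6a1 and Col14a1 in each sample, by set (horizontal axis), with control samples in blue, hypertensive-LVH samples in red and short lines at the mean of 3 samples. Control samples 4 to 6 of Col1a1, Col1a2 and Col3a1 lie below 0, and in samples 7 to 9 and 10 to 12 the hypertensive-LVH samples are spread more widely than the controls.

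The base sequences before the starts of 3 upregulated genes are shown to compare a major fibrillar chain (Col3a1) with a fibril-nucleating chain (Col5a1) and a FACIT chain (Col16a1). They are the 250 bases upstream of the start of each gene in the RefSeq promoter table (GRCm38.p6), all on the plus strand, 5′ to 3′, with capitals for matches to the TATA box (spelled TATAAA), the CCAAT box (spelled as its name) and the GC box (spelled GGGCGG). Both strands were searched, and a match on the minus strand appears as its reverse complement. No matches overlapped each other in these windows.
Col3a1 (chr1:45311288-45311537): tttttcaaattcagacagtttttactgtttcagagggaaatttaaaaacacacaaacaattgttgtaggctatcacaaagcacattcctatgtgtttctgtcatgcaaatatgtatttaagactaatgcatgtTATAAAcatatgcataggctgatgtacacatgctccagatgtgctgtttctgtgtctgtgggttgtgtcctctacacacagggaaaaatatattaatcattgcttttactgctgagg
Col5a1 (chr2:27886175-27886424): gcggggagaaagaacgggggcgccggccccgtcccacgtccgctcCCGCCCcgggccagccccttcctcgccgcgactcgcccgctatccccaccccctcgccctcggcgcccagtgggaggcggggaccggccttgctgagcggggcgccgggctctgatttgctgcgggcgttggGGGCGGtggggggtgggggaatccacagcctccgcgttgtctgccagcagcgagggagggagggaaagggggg
Col16a1 (chr4:130047590-130047839): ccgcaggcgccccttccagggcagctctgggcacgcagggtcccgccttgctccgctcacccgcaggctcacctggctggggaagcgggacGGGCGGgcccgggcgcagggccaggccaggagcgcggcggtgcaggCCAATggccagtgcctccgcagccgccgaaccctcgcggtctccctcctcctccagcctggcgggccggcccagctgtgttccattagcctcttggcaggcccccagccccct
Col3a1 held 1 match to TATAAA, 117 to 112 bases before the start. Col5a1 held 2 matches to GGGCGG, and Col16a1 held 1 to CCAAT and 1 to GGGCGG. These are matches of spelling, and whether they act as promoter elements was not tested. Of the 31 collagen genes with a window in the table, 3 had a match to TATAAA, 11 to CCAAT and 20 to GGGCGG in any of their windows. Over all 32851 windows, counted by window and not by gene, the shares were 12.4%, 33.8% and 32.7%. Of the 11 upregulated genes with a window, 1, 4 and 7 had such matches.

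Of the chains of type V collagen, which nucleates and limits the width of type I fibrils, Col5a1 and Col5a2 were also upregulated. Col5a1 (chr2:27886425-28039514) lay between 17.2 and 58.0 FPKM (median 34.2) in the hypertensive-LVH samples and between -1.86 and 24.6 (median 20.5) in the controls. Its log2 fold change was 1.55 ± 0.46 (adjusted p = 0.0131, limma) and stayed past the adjusted p without samples 4 to 6, at 0.46 ± 0.15 (adjusted p = 0.0380). Col5a2 ranged from 20.9 to 68.3 FPKM (median 39.6) against 9.45 to 32.5 (median 29.0), with a log2 fold change of 0.78 ± 0.22 (adjusted p = 0.00878, limma) and of 0.27 ± 0.15 without samples 4 to 6 (adjusted p = 0.213). The difference with the scaling undone was -0.17, 53.7, 16.9 and 11.6 FPKM in the 4 sets for Col5a1, and 2.23, 48.8, 21.9 and 13.7 for Col5a2, and both passed the exact test within sets (adjusted p = 0.00967 and 0.00367). When samples 4 to 6 were left out, this test passed for Col5a2 (adjusted p = 0.0384) and did not for Col5a1 (adjusted p = 0.104, exact test within sets). The third chain, Col5a3, was higher by the adjusted p alone over all samples, with a log2 fold change of 0.45, and not without samples 4 to 6, at 0.26 (adjusted p = 0.194, limma). Of the solved genes it was the 1 that passed limma but not the exact test with the scaling undone (adjusted p = 0.0804).

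The remaining fibrillar genes were low. Col27a1 had medians of 2.18 and 1.66 FPKM in the hypertensive-LVH and control groups and Col11a2 of 1.07 and 0.812, and over all samples both were higher by the adjusted p alone, with log2 fold changes of 0.49 and 0.26. Leaving out samples 4 to 6 gave 0.13 and 0.11, and neither passed (adjusted p = 0.370 and 0.473, limma). The cartilage chains Col2a1 and Col11a1 did not pass, at 0.11 and -0.06. The median of Col2a1 was 0.149 FPKM in the hypertensive-LVH group and 0.133 in the control group, and all 3 of its values in control samples 4 to 6 were negative.

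The network class held the most abundant basement membrane chains. Col4a1 and Col4a2 encode the chains of the ubiquitous type IV trimer, and Col4a1 lay between 253 and 435 FPKM (median 299) in the hypertensive-LVH samples and between 160 and 267 (median 235) in the controls. Col4a2 ranged from 167 to 294 FPKM (median 201) against 106 to 177 (median 157). No value of either chain was negative, and 9 and 10 of the 12 hypertensive-LVH samples lay above the highest control. The log2 fold change of Col4a2 was 0.51 ± 0.10 (adjusted p = 0.000391, limma), and that of Col4a1 was 0.47 ± 0.10 (adjusted p = 0.000845, limma), just short of the fold change threshold. Both stayed past the adjusted p without samples 4 to 6, at 0.35 ± 0.08 (adjusted p = 0.00654) and 0.31 ± 0.09 (adjusted p = 0.0139).

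Within the sets, with the scaling undone, Col4a1 was higher by 3.09, 173, 109 and 94.3 FPKM in the 4 sets, and Col4a2 by 0.27, 125, 66.0 and 68.1. Both chains also passed the exact test within sets without samples 4 to 6 (adjusted p = 0.0444 and 0.0434). The smallest difference of both chains was thus in samples 1 to 3. The genes lie head to head on chromosome 8 (chr8:11198423-11312826 and chr8:11312805-11449287), with starts 21 bases apart.

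The other type IV chains have a more restricted distribution among basement membranes. Col4a5 rose by the adjusted p alone, from a control median of 8.66 to 10.9 FPKM, with a log2 fold change of 0.39 ± 0.09 (adjusted p = 0.00263, limma) and of 0.19 ± 0.08 without samples 4 to 6 (adjusted p = 0.0956). Its head-to-head neighbour on the X chromosome, Col4a6, had a log2 fold change of 0.21 and did not pass. Col4a3 and Col4a4, also head to head with starts 72 bases apart, had log2 fold changes of 0.07 and -0.01 and did not pass.

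Type VIII collagen forms hexagonal networks in vessel walls. Col8a1 lay between 13.9 and 35.0 FPKM (median 24.3) in the hypertensive-LVH samples and between 12.1 and 19.5 (median 16.9) in the controls, and 8 of 12 hypertensive-LVH samples lay above all controls. Its log2 fold change was 0.50 ± 0.13 (adjusted p = 0.00502, limma), just past the fold change threshold, and 0.29 ± 0.14 without samples 4 to 6 (adjusted p = 0.160). Its scaling could not be solved. Col8a2 had a log2 fold change of 0.48 ± 0.24 over all samples, which did not pass (adjusted p = 0.128, limma), and of -0.09 without samples 4 to 6. It passed the exact test with the scaling undone, at a mean difference of 1.55 FPKM (adjusted p = 0.00998). Without samples 4 to 6 it did not pass that test, at 0.57 FPKM (adjusted p = 0.107, exact test within sets).

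The 3 main chains of collagen VI, which links cells to the fibrillar matrix, moved alike. Col6a1 lay between 41.5 and 113 FPKM (median 73.9) in the hypertensive-LVH samples and between 11.1 and 64.8 (median 53.4) in the controls. Col6a2 ranged from 31.4 to 107 (median 68.4) against 7.96 to 64.9 (median 44.4). Col6a3, the longest chain, ranged from 9.33 to 25.9 (median 16.8) against 2.37 to 13.9 (median 12.5). The lowest controls of all 3 were samples 4 to 6, which reached at most 22.2, 18.4 and 5.30 FPKM.

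The log2 fold changes were 0.86 ± 0.25 for Col6a1, 0.93 ± 0.27 for Col6a2 and 0.82 ± 0.23 for Col6a3, with adjusted p of 0.0103, 0.0113 and 0.00976 (limma). Without samples 4 to 6 they were 0.26, 0.31 and 0.25 and did not pass (adjusted p from 0.158 to 0.214). With the scaling undone, the difference of Col6a1 (hypertensive-LVH minus control) was -3.51 FPKM in samples 1 to 3 and 96.8, 21.7 and 20.7 FPKM in the other sets. Col6a2 and Col6a3 had the same signs, with -6.32 and -0.73 FPKM in samples 1 to 3. All 3 passed the exact test within sets over the 4 sets (adjusted p from 0.0213 to 0.0368) and none did without samples 4 to 6 (adjusted p from 0.222 to 0.366). The fourth tested chain, Col6a6, had a log2 fold change of -0.10 and did not pass. Its median was 0.883 FPKM in the hypertensive-LVH group and 0.994 in the control group.

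Among the FACIT genes, Col14a1 encodes a fibril-surface collagen that regulates fibril growth, and it lay between 7.46 and 25.1 FPKM (median 12.3) in the hypertensive-LVH samples and between -1.12 and 12.0 (median 7.08) in the controls. Its log2 fold change was 1.34 ± 0.39 (adjusted p = 0.0103, limma), and 0.42 ± 0.17 without samples 4 to 6 (adjusted p = 0.0858). Col16a1 ranged from 7.16 to 21.8 FPKM (median 11.3) against 1.61 to 9.99 (median 9.14), with a log2 fold change of 0.84 ± 0.26 (adjusted p = 0.0157, limma) and of 0.19 ± 0.12 without samples 4 to 6 (adjusted p = 0.265). After undoing the scaling, the differences of Col14a1 and Col16a1 were -0.95 and -0.28 FPKM in samples 1 to 3 and above 0 in the other sets. Both passed the exact test within sets (adjusted p = 0.0232 and 0.00678), and without samples 4 to 6 neither did (adjusted p = 0.242 and 0.0735).

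Col9a2 and Col22a1 were higher by the adjusted p alone over all samples, with log2 fold changes of 0.42 and 0.31, and control samples 4 to 6 of both were negative. The fold changes without samples 4 to 6 were 0.11 and 0.05 and neither passed (adjusted p = 0.560 and 0.548, limma). Col12a1, a FACIT of dense connective tissue, had a log2 fold change of 0.36 ± 0.17 and did not pass (adjusted p = 0.110, limma), nor did it without samples 4 to 6, at -0.02. In the values with the scaling undone it was higher by 0.18, 3.78, 1.20 and 0.87 FPKM in the 4 sets (adjusted p = 0.00210, exact test within sets), and it passed without samples 4 to 6 as well (adjusted p = 0.0208). Col12a1, Col2a1 and Col8a2 were the 3 genes that passed the exact test but not limma. Of these, Col2a1 and Col8a2 did not pass the exact test without samples 4 to 6 (adjusted p = 0.261 and 0.107, exact test within sets). Col9a3 and Col20a1 did not pass either test.

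Outside these classes, both multiplexins, which are basement-membrane-zone collagens with heparan or chondroitin sulfate chains, were upregulated. Col18a1, the precursor of the antiangiogenic fragment endostatin, lay between 6.61 and 31.1 FPKM (median 15.7) in the hypertensive-LVH samples and between -2.00 and 13.4 (median 7.78) in the controls, with a log2 fold change of 1.49 ± 0.43 (adjusted p = 0.00994, limma) and of 0.48 ± 0.21 without samples 4 to 6 (adjusted p = 0.120). Col15a1 ranged from 42.6 to 128 FPKM (median 80.4) against 15.5 to 76.0 (median 54.3), with a log2 fold change of 0.72 ± 0.21 (adjusted p = 0.0117, limma) and of 0.27 ± 0.15 without samples 4 to 6 (adjusted p = 0.212). With the scaling undone, Col18a1 differed by 0.97, 31.4, 5.78 and 8.79 FPKM in the 4 sets and Col15a1 by -4.06, 78.7, 23.7 and 26.6. Both passed the exact test within sets (adjusted p = 0.0186 and 0.0332), but not without samples 4 to 6 (adjusted p = 0.193 and 0.332).

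The anchoring-fibril gene Col7a1 and the genes Col26a1 and Col28a1 were higher by the adjusted p alone, with log2 fold changes of 0.11, 0.33 and 0.19. In the fit without samples 4 to 6 they were 0.08, 0.18 and 0.11 and none passed limma (adjusted p = 0.234, 0.149 and 0.297), although Col7a1 passed the exact test with the scaling undone (adjusted p = 0.0180). Their medians were 0.271, 0.629 and 0.887 FPKM in the hypertensive-LVH samples and 0.199, 0.407 and 0.720 in the controls. The transmembrane genes Col13a1 and Col23a1 had log2 fold changes of 0.05 and did not pass. Of the 4 genes below the minimum level, Col24a1 had medians of 0.0821 and 0.0453 FPKM and Col25a1 of 0.0660 and 0.0753 in the hypertensive-LVH and control groups. Col6a5 reached at most 0.171 FPKM in any sample. Col9a1 had a median of 0 in both groups, with a highest value of 0.57 FPKM in hypertensive-LVH samples 4 to 6.

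**Figure D3:**
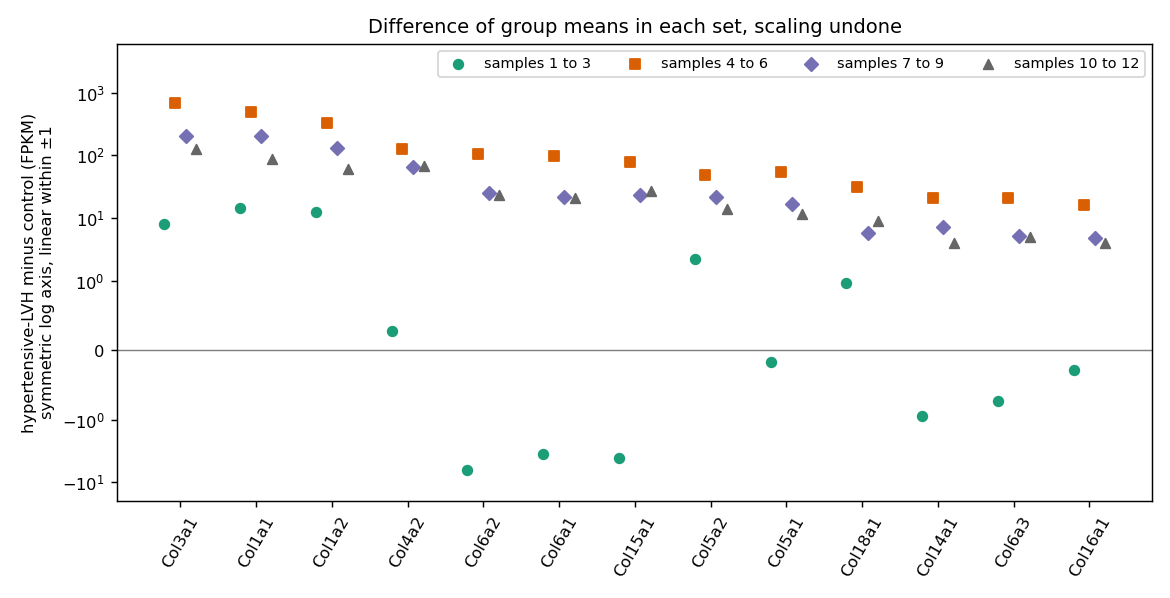
Difference between the group means in FPKM (vertical axis, symmetric log scale) within each set after the scaling was undone, for the 13 upregulated collagen genes that could be solved (horizontal axis). Every point of samples 4 to 6, 7 to 9 and 10 to 12 lies above 0, samples 4 to 6 have the largest difference of each gene, and in samples 1 to 3 the differences lie between -6.32 (Col6a2) and 14.5 FPKM (Col1a1).

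The hypertensive-LVH samples differed widely in collagen. The summed collagen value lay between 1114 and 2881 FPKM (median 1764) in the hypertensive-LVH samples and between 220 and 1388 (median 1165) in the controls. Without samples 4 to 6 it ran from 1114 to 2480 (median 1510) against 1105 to 1388 (median 1201). In samples 1 to 3 the hypertensive-LVH sums were 1380 to 1857 FPKM and the control sums 1197 to 1388, and in samples 10 to 12 they were 1224 to 2387 against 1105 to 1303. Both groups of samples 4 to 6 stood apart, with 2301 to 2881 against 220 to 418 FPKM. As deposited, hypertensive-LVH sample 9 had the lowest sum of its group, 1114 FPKM, below all 3 controls of its set. Deposited values within a set carry the group term and the scaling. In samples 7 to 9 the group means of Col3a1 differed by 117 FPKM as deposited and by 203 with the scaling undone. Single samples were not compared with the scaling undone. Their order against the controls of their set, here and in the counts that follow, therefore holds only for the deposited values.

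Sample 9 lay below every control of its set for 18 of the 36 tested genes and above every one for 6, near the shares over all genes (45.7% and 20.4%). Sample 12 lay below its controls for 21 genes and above them for 8, beside 41.7% and 38.8% of all genes. Sample 11 lay above them for 32 genes and sample 8 for 24, beside 51.9% and 42.8% of all genes. In samples 4, 5 and 6, between 33 and 35 genes lay above all controls of the set, beside at most 61.2% of all genes. In the deposited values pooled over the sets, the lowest hypertensive-LVH value was above the highest control value for 0 of the 36 genes. This is near the share over all genes, 0.271%, and overlap across sets also reflects the shift of each set.

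Chains of the same trimer, fibril or network, and the pair of multiplexin genes, were next compared as ratios of the deposited values, on the log2 scale of (FPKM + 1), for 8 pairs with p-values adjusted over the pairs. Control values set to 0 in samples 4 to 6 fix the ratio of several pairs there, so the comparison without these samples is given for each pair. In it, 4 pairs differed between the groups. These ratios carry the group term of each gene, so the comparison without samples 4 to 6 is not independent of them, and no ratio can be formed with the scaling undone. The permutation tests below exchanged labels across the sets, although each gene had been shifted and scaled by set. Exchange within the sets was run only with samples 4 to 6 included. Type I collagen is built of 2 alpha 1 chains and 1 alpha 2 chain. The median ratio of Col1a1 to Col1a2 was 1.23 (range 1.12 to 1.42) in the hypertensive-LVH group and 1.10 (range 0.887 to 1.16) in the control group, a log2 difference of 0.25 (adjusted p = 0.000768, exact permutation test, n = 9 each). Over all samples the log2 difference was 0.28 (adjusted p = 0.000160, permutation test).

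The median ratio of Col3a1 to Col1a1 was lower, 1.53 (range 1.14 to 1.67) in the hypertensive-LVH group against 1.70 (range 1.60 to 2.46) in the control group, a log2 difference of -0.37 (adjusted p = 0.000768, exact permutation test, n = 9 each). Over all samples the difference was -0.14 and did not pass (adjusted p = 0.384, permutation test). Among the controls of these 3 sets, samples 7 to 9 had the lowest ratio of Col1a1 to Col1a2 and the highest of Col3a1 to Col1a1. The control means of the log2 ratio of Col3a1 to Col1a1 were 0.74, 1.28 and 0.75 in samples 1 to 3, 7 to 9 and 10 to 12. The permutation test does not take these differences between sets into account. The part that the shift and the group term of each gene have in these ratios was not tested.

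Col5a1 to Col5a2 was higher by 0.19 without samples 4 to 6 (adjusted p = 0.0261, exact permutation test) and by 0.76 over all samples (adjusted p = 0.000720, permutation test), although in samples 1 to 3 the means were both -0.38. Col8a1 to Col8a2 was higher by 0.38 without samples 4 to 6 (adjusted p = 0.000768, exact permutation test), with medians of 9.38 and 7.08, and by 0.03 over all samples (adjusted p = 0.890, permutation test). Col15a1 to Col18a1 differed by -0.77 over all samples (adjusted p = 0.00693, permutation test), and without samples 4 to 6 the difference was -0.21 and did not pass (adjusted p = 0.116, exact permutation test).

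The chains of the other trimers kept closer ratios. Col4a1 to Col4a2 differed by -0.05 over all samples (adjusted p = 0.0403, permutation test) and by -0.03 without samples 4 to 6 (adjusted p = 0.174, exact permutation test). Its median ratio was 1.51 in the hypertensive-LVH group and 1.54 in the control group. Neither collagen VI ratio passed in either comparison, with log2 differences over all samples of -0.07 for Col6a1 to Col6a2 and -0.04 for Col6a3 to Col6a1, and of -0.05 and -0.02 without samples 4 to 6.

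**Figure D4:**
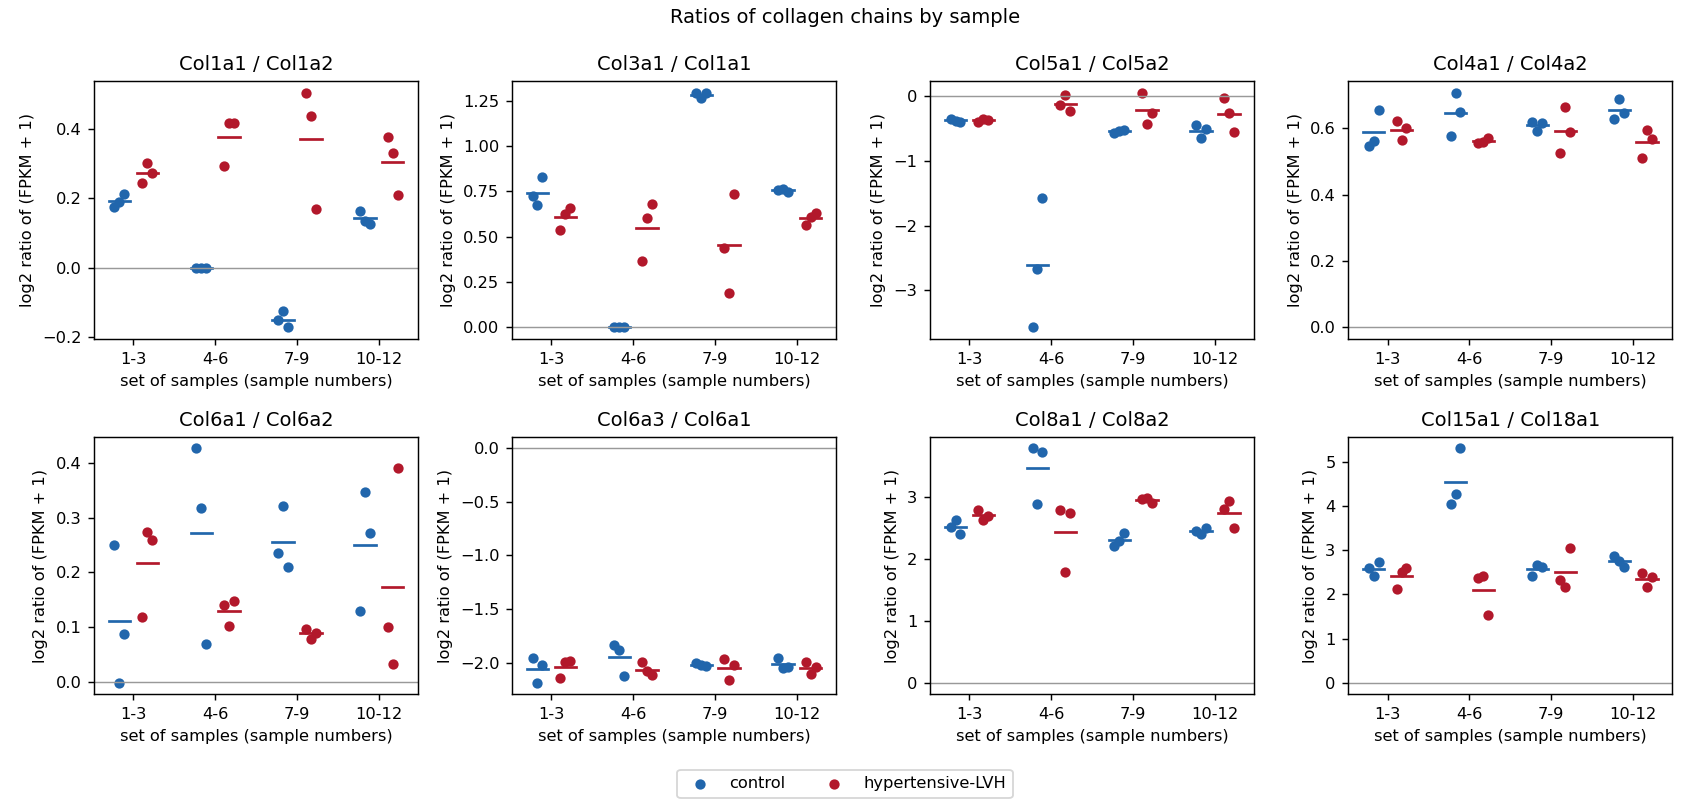
Log2 ratio of (FPKM + 1) between the chains of 8 pairs (vertical axis) in each sample, by set (horizontal axis), with control samples in blue, hypertensive-LVH samples in red and short lines at the mean of 3 samples. In samples 1 to 3, 7 to 9 and 10 to 12 the red points of Col1a1 to Col1a2 lie above and those of Col3a1 to Col1a1 below the blue points; in control samples 4 to 6 both ratios are 0 because all 3 values of each gene were set to 0. The deposited values of all sets carry the shared group term, so the sets do not repeat each other independently.

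The make-up of the collagen RNA is given as the share of each class in the summed FPKM without samples 4 to 6, as a description. The fibrillar genes had a median share of 50.7% (range 35.9% to 61.3%) in the hypertensive-LVH group and of 46.5% (range 43.6% to 51.0%) in the control group. The network genes had 32.7% (range 24.8% to 45.7%) against 35.4% (range 33.6% to 37.6%). The beaded-filament genes had 8.59% against 9.61%, and the FACIT genes 1.65% against 1.87%. The ranges of the groups overlapped in all 4 classes. In the controls, 5 genes (Col3a1, Col4a1, Col4a2, Col1a1 and Col1a2) had a median of at least 100 FPKM, 7 had 10 to 100, 13 had 1 to 10 and 15 were under 1.

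The enzymes and chaperones that modify, fold, secrete and cross-link collagen rose in part. Of 33 listed genes, all tested, 10 were upregulated and 0 downregulated, beside 4.52% and 1.4% of all genes, and by the adjusted p alone 20 were higher and 2 lower, beside 20.9% and 12.6%. Without samples 4 to 6, 4 were upregulated, beside 2.3% of all genes. By the adjusted p alone 8 were then higher and 2 lower, beside 8.36% and 11.6%. The largest rise was in Lox, the lysyl oxidase that cross-links fibrils, with a log2 fold change of 1.77 ± 0.31 (adjusted p = 0.000152, limma) and of 1.45 without samples 4 to 6 (adjusted p = 0.00833). The largest fall was in P3h4, a partner of collagen lysyl hydroxylation, at -0.24 ± 0.05 (adjusted p = 0.00153, limma). The median of the list was 0.32, and 0.14 without samples 4 to 6. Of 9 tested collagen receptor genes 2 were upregulated, beside 4.52% of all genes, led by the endocytic receptor Mrc2 at 0.67 ± 0.19 (adjusted p = 0.00913, limma). In the fit without samples 4 to 6, 0 receptor genes were upregulated, beside 2.3%.

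Markers of the cell types of the ventricle were read beside these results. The shares of all genes called, 4.52% higher and 1.4% lower over all samples and 2.3% and 1.64% without samples 4 to 6, apply to these counts too. Of 9 fibroblast markers, 3 were upregulated and 1 was downregulated (median log2 fold change 0.32), and without samples 4 to 6, 1 was upregulated and 2 were downregulated (median -0.04). Their summed level was 895 to 1901 FPKM in the hypertensive-LVH group and 714 to 1278 in the control group, and 895 to 1200 against 956 to 1278 without samples 4 to 6. Of 7 macrophage markers, 4 were upregulated, with sums of 186 to 537 against 131 to 283 FPKM, and 0 were without samples 4 to 6. Of 9 cardiomyocyte markers, 0 were upregulated and 2 downregulated (1 downregulated without samples 4 to 6), with sums of 35609 to 52053 against 46632 to 60425 FPKM. Of 9 smooth muscle and pericyte markers 2 were upregulated and 1 was downregulated, and without samples 4 to 6, 0 and 1 (sums of 343 to 520 against 268 to 464), and of 7 endothelial markers 0 changed by both criteria (sums of 365 to 553 against 383 to 473).

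Of the 6 epicardial and 4 atrial markers 0 were called, and of 5 tested valve and cartilage markers 1 was upregulated, whereas without samples 4 to 6, 0 were upregulated and 1 was downregulated, while the cartilage link protein gene Hapln1 lay below 0.1 FPKM. The summed valve and cartilage markers reached 139 FPKM in the hypertensive-LVH group and 57.7 in the control group, and 62.8 against 57.7 without samples 4 to 6. The atrial sums, which included negative values, ran from -164 to 2315 and from -155 to 3168 FPKM. The part of these cell types in the collagen differences was not tested.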

How the data were processed

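The deposited table gives FPKM per gene for 24 left ventricle samples. The submitters' processing notes name Bowtie2, HISAT and RSEM without versions, and the genome build is not given in the sources used here. Of the deposited values 0.766% (2741) were negative, so the authors had changed the FPKM further (another unit than FPKM), by steps not given in the sources used here. Sample pairs of the same group shared 218 to 546 tied values within a set and 0 to 12 between sets. The 4 sets follow the sample numbers, and ties between the groups were not counted. Sets of the hypertensive-LVH and control groups were joined by these numbers. The tests designed for FPKM were used on these values.

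Negative values were set to 0, log2(FPKM + 1) was taken, and the 14026 genes whose mean reached 0.1 FPKM entered limma 3.58.1 in R 4.3.3 (intensity trend, Benjamini-Hochberg adjustment over all tested genes, two-sided). Groups were taken from the sample labels. The study's methods call the samples biological replicates. The scaling of each set, which left aside a group difference shared by the sets, was undone for each gene from steps of 0.01 FPKM, as differences within sets. A single solution was found for 13391 of 14912 genes and 37 of 40 collagen genes. The exact test exchanged labels within the sets (160000 relabelings). Ratios were tested with labels exchanged across the sets, with 100000 resamples, or exactly with 9 samples per group. Every collagen gene was eligible to be named, and of each pathway list the largest rise and fall. The collagen genes, classes and lists were chosen with earlier results of these data known. Gene positions are from GENCODE vM21 (GRCm38) and were not used for any test. Python 3.11.15, numpy 2.4.6, pandas 2.3.3, scipy 1.17.1 and matplotlib 3.10.9 were used. Alternatives were other pseudocounts, filters, scalings, tests and subsets of samples. The contrast of samples 4 to 6 with the other sets and the exact test on values with the scaling undone (also without samples 4 to 6) were added after seeing the data.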

Additional observations from a re-analysis of the deposited data

How the results depend on the processing

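Leaving out samples 4 to 6 of both groups moved the count of upregulated genes furthest among the 4 fits without one set. In these fits, the upregulated collagen genes numbered 1 to 18, those past the adjusted p alone 4 to 23, the fibrillar genes 1 to 7, the network genes 0 to 3, the beaded-filament genes 0 to 3 and the FACIT genes 0 to 4. The lowest counts of upregulated genes (1, 1, 0, 0 and 0) came without samples 4 to 6, and the FACIT count of 4 came without samples 7 to 9 and with a pseudocount of 0.1. In each set on its own, samples 1 to 3, 7 to 9 and 10 to 12 gave 0 in each of these counts (by an unadjusted p under 0.05, 7, 5 and 2 genes were higher and 1, 1 and 0 lower), and samples 4 to 6 gave 25 upregulated genes, of which 8 fibrillar, 6 network and 5 FACIT. The exact test with the scaling undone gave 25 genes past the adjusted p, and 7 without samples 4 to 6. Network genes fell to 0 upregulated with median-ratio scaling and to 1 with quantile normalization. The count of downregulated genes was 0 under every alternative (at an unadjusted p under 0.05, from 0 to 2).

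Whether the shared replicate numbers pair the samples was not settled. The correlations of same-numbered samples ran from -0.557 to -0.00109, with 0 of 12 over 0.1, and 0 samples correlated best with their own number. The sets had been shifted, which can by itself set the sign of these correlations, so they cannot decide this. With the replicate block, 6 collagen genes were upregulated and 10 passed the adjusted p (shares over all genes not given here). Of the upregulated genes, 2 were fibrillar, 0 beaded-filament and 1 FACIT. Col1a2, Col3a1, Col5a2, Col6a1, Col6a2, Col6a3, Col15a1 and Col16a1 then had an adjusted p from 0.0507 to 0.0833, and the log2 ratio of Col4a1 to Col4a2 of -0.047 did not pass (adjusted p = 0.0850, exact permutation test).

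Among the ratios, Col3a1 to Col1a1 turned to 0.087 without samples 7 to 9 and was -0.37 without samples 4 to 6. Col4a1 to Col4a2 lost its call with quantile normalization (-0.029), without samples 4 to 6 (-0.035), without samples 10 to 12 (-0.031) and with labels exchanged within sets (-0.047). Col6a1 to Col6a2 passed without samples 1 to 3 (-0.13). Col6a3 to Col6a1 turned to 0.019 with a pseudocount of 0.1. Col8a1 to Col8a2 turned to -0.48 with a pseudocount of 0.1, to -0.030 without samples 1 to 3, to -0.18 without samples 7 to 9 and to -0.064 without samples 10 to 12, and was 0.38 without samples 4 to 6. Col15a1 to Col18a1 lost its call without samples 4 to 6 (-0.21) and without samples 10 to 12 (-0.89).

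Of the fold changes of single genes, 464 of the alternative values kept direction and call, 123 lost the call, 9 gained it and 37 turned. None of the turned values was of a gene called upregulated. The fits on deposited values carry the group term, and the values with the scaling undone entered this count only as means over the sets. With the scaling undone, Col5a1, Col6a1, Col6a2, Col6a3, Col14a1, Col15a1 and Col16a1 were lower in the hypertensive-LVH group in samples 1 to 3. Col3a1 lost its call with a pseudocount of 0.1 (3.46, adjusted p = 0.0562). Without samples 4 to 6, those that turned were Col2a1 (-0.021), Col4a3 (-0.027), Col4a6 (-0.039), Col8a2 (-0.089), Col12a1 (-0.020), Col13a1 (-0.021) and Col23a1 (-0.063). With quantile normalization they were Col4a3 (-0.037), Col13a1 (-0.051) and Col23a1 (-0.059). Without samples 7 to 9, Col11a1 (0.026) and Col4a4 (0.097) turned, and without samples 1 to 3, Col6a6 (0.020). With the scaling undone, Col4a4 turned to 0.0025 FPKM. In samples 1 to 3 alone, Col5a3 (-0.20), Col11a1 (0.042), Col13a1 (-0.11) and Col23a1 (-0.13) turned. In samples 4 to 6 alone, Col11a1 (0.24), Col4a4 (0.32) and Col6a6 (0.27) turned. In samples 7 to 9 alone, Col2a1 (-0.11), Col11a2 (-0.16), Col4a3 (-0.17), Col4a6 (-0.19), Col8a2 (-0.31), Col9a2 (-0.029), Col12a1 (-0.22), Col20a1 (-0.13), Col22a1 (-0.013) and Col23a1 (-0.098) turned. In samples 10 to 12 alone, Col2a1 (-0.0094), Col11a2 (-0.017), Col8a2 (-0.12), Col6a6 (0.043), Col12a1 (-0.0099) and Col13a1 (-0.0015) turned. With the scaling undone, Col2a1, Col4a6, Col8a2, Col9a2, Col12a1 and Col22a1 were higher in the hypertensive-LVH group in samples 7 to 9. Col11a2, Col4a3, Col20a1 and Col23a1 were lower there. All the genes named for samples 10 to 12 were higher in that set with the scaling undone. The turns of these sets therefore hold for the deposited values. The cause of these changes was not tested. The depth of the libraries is unknown, so the precision of the low genes cannot be given.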
